A study of Mus musculus with 6 samples.

Results

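Usp18, Rnf213, Trim30a and Stat2 are 4 protein-coding genes whose mRNAs interferon is known to induce. They were selected by name, on the reads they gained with lipopolysaccharide (LPS) in these libraries, from 964 genes with a read among 56262 gene identifiers. All 4 had reads, so none was lost to a filter on low values in the descriptions by library. The data are gene-specific TAIL-Seq libraries, in which a linker is joined to RNA 3′ ends and chosen transcripts are then amplified by PCR. The libraries came from bone marrow-derived macrophages (BMDMs), which had been differentiated over 7 days with 20% L929-conditioned medium and held overnight with M-CSF at 10 ng/ml. The donors were female C57BL/6J mice, 7 weeks old, that were Tut7-/- (made with CRISPR/Cas9) or wild type. The product of Tut7, terminal uridyltransferase 7, attaches uridines to RNA 3′ ends. BMDMs of each genotype received LPS for 2 h or 4 h or were left untreated (Ctrl), which made 6 libraries, 1 for each genotype and time. The labels speak of duplicates, but there was 1 count table for each group, so no group had a replicate and no spread between animals can be given.

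LPS is sensed by Toll-like receptor 4. One branch of its signaling leads to secreted interferon-β, which acts back on the macrophage through the type I interferon receptor. The receptor then drives a transcription factor complex that contains STAT2 to interferon-stimulated response elements in the promoters of many genes. USP18 removes the ubiquitin-like protein ISG15 from its targets and also restrains the interferon receptor. RNF213 is a very large E3 ubiquitin ligase with ATPase domains, known in humans as a susceptibility gene for the brain vessel disease moyamoya. TRIM30a, found in mice, is known to restrain Toll-like receptor signaling.

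The Tut7-/- libraries held 21408 reads in Ctrl, 55922 at 2 h and 43540 at 4 h. The wild-type libraries held 26027, 44626 and 56718 reads at the same stages. Zc3h12a, which encodes Regnase-1, took between 45.1% and 62.5% of them, so every share below refers to an amplified pool and is no measure of abundance in the cell. Reads of different genes reflect their primers and amplification as well, and counts are therefore compared between libraries and not between genes. A count of 0 allows 3 reads, or a share of 0.00529% to 0.014% by library, and this is called the floor. A fold against a library with 0 reads is computed against its floor, leaves out counting error in the other library and is written as at least. Intervals are 95% intervals for counting error only, since reads amplified by PCR and not tagged with molecular identifiers cannot be counted as separate molecules. Tut7 had 0 reads in every library, so the genotype labels could not be checked with it. Of 10 macrophage markers only Lyz2 and Mpeg1 had reads, at most 4 in a library, and all 24 markers of other cells were at 0, so the tables hold too few untargeted reads to check the cell type. In such bulk libraries, fewer cells with a transcript and less of it per cell cannot be told apart.

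The promoters of 3 of the 4 genes were available from RefSeq (GRCm38.p6), as windows from 250 bases before to 50 bases after the start. An ISRE-like stretch, the letters GAAA, then any 2 bases, then GAAA on either strand, was present in the windows of Stat2 and of both Trim30a starts and not in that of Rnf213. It was present in 1131 of 32851 promoter windows of that length, or 3.44%. The Stat2 match began at -222 relative to the start (chr10:128270248-128270547, plus strand), and the Trim30a match at -36 relative to the start that coincides with the annotated gene end (chr7:104465144-104465443, minus strand). In the 2 sequences below, shown because they hold the letters by which this gene group is usually recognized, capitals mark the match, which is read from the opposite strand. A match is a description of letters and not evidence of binding.
Stat2 promoter: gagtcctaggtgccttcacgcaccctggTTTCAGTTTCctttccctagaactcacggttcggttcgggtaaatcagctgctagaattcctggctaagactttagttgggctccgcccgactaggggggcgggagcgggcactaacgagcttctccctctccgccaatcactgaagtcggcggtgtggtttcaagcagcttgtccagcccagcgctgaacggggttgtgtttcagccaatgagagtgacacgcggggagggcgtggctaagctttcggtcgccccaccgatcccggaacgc
Trim30a promoter: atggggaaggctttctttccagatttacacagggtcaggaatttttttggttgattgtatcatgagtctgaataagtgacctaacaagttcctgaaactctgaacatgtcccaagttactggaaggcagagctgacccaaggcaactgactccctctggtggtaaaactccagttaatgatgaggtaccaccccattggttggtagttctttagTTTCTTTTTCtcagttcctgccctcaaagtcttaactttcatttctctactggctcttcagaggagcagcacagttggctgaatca
The windows of the neighboring relatives Trim30d, Trim5 and Trim12c held a match too, and that of Trim30b did not. GAS-like letters, TTCNNNGAA, were in 8.3% of all windows and TATAAA in 13.6%, and neither was in the windows of Rnf213, Trim30a or Stat2.

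Usp18 (ENSMUSG00000030107.10, mm10 chromosome 6, 121245906 to 121270917, plus strand) gave by far the most reads of the group, 9836 over all libraries. In Tut7-/- cells it had 148 reads in Ctrl, 2741 at 2 h and 2278 at 4 h, which were 0.691%, 4.9% and 5.23% of the library. In wild-type cells it had 133, 1798 and 2738 reads at the same stages, which were 0.511%, 4.03% and 4.83%. Both Ctrl shares were thus below all 4 LPS shares, which is the contrast on which the gene was selected, so nothing is read from it. How many of all genes separate likewise was not counted. By reads it was 9th, 3rd and 4th of the genes in the Tut7-/- libraries and 13th, 4th and 5th in the wild-type ones, and it was the only one of the 4 genes well above the floor in Ctrl.

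The Usp18 share was 7.09-fold (6.01 to 8.42) higher at 2 h than in Ctrl and 7.57-fold (6.41 to 9) higher at 4 h in Tut7-/- cells. In wild-type cells the folds were 7.88 (6.61 to 9.48) and 9.45 (7.94 to 11.3). These folds describe the contrast on which the gene was selected and carry no test. They stand against a median gene that lost share, with log2 ratios of -3.02 and -3.72 in Tut7-/- cells and -2.66 and -3.82 in wild-type cells at the same times. From 2 h on the share moved little, with a ratio of 4 h to 2 h of 1.07 (1.01 to 1.13) in Tut7-/- and 1.2 (1.13 to 1.27) in wild-type cells. Other scalings of the libraries turned the direction of this late step in both genotypes, so no direction between 2 h and 4 h is given.

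Rnf213 (ENSMUSG00000070327.14, mm10 chromosome 11, 119393100 to 119487418, plus strand) was at or below the floor without LPS and well above it afterwards. Tut7-/- cells had 2 reads in Ctrl, 98 at 2 h and 246 at 4 h, shares of 0.00934%, 0.175% and 0.565%. Wild-type cells had 0, 61 and 103 reads, shares of 0%, 0.137% and 0.182%. The Tut7-/- LPS 4 h library stood above the other 3 LPS libraries. In Tut7-/- cells the ratio to Ctrl was 18.8 (5.06 to 157) at 2 h and 60.5 (16.6 to 502) at 4 h, wide because the Ctrl library held 2 reads. Against the floor of 3 reads in wild-type Ctrl, the share was at least 11.9-fold higher at 2 h and at least 15.8-fold higher at 4 h. From 2 h to 4 h the share changed 3.22-fold (2.54 to 4.12) in Tut7-/- cells and 1.33-fold (0.959 to 1.85) in wild-type cells, the second interval holding 1.

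Trim30a (ENSMUSG00000030921.17, mm10 chromosome 7, 104409025 to 104465193, minus strand) had its highest count at 2 h in both genotypes. In Tut7-/- cells there were 0 reads in Ctrl, 17 at 2 h and 5 at 4 h, shares of 0%, 0.0304% and 0.0115%. In wild-type cells there were 5, 32 and 2 reads, shares of 0.0192%, 0.0717% and 0.00353%. Only the 2 h libraries were clearly above the floor, and the other 4 held between 0 and 5 reads. At 2 h the share was at least 2.17-fold higher than in Ctrl in Tut7-/- cells and 3.73-fold (1.44 to 12.3) higher in wild-type cells. Against Ctrl, the 4 h counts were too low for a direction, with 5 reads against 0 in Tut7-/- cells and a wild-type ratio of 0.184 (0.0175 to 1.12). At 4 h it was 0.378-fold (0.109 to 1.07) its 2 h value in Tut7-/- cells, an interval that held 1. The wild-type ratio was 0.0492 (0.00571 to 0.193), with 2 reads in the LPS 4 h library.

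Stat2 (ENSMUSG00000040033.16, mm10 chromosome 10, 128270559 to 128292849, plus strand) was seen only at 2 h. It had 3 reads in Tut7-/- and 10 reads in wild-type cells after 2 h of LPS and 0 in the other 4 libraries. The Tut7-/- count was at the floor, so no fold over Ctrl is given for that genotype. In wild-type cells the share at 2 h, 0.0224% (0.0107% to 0.0412%), was at least 1.94-fold higher than the floor of Ctrl and at least 4.24-fold higher than that of LPS 4 h. In Ctrl and LPS 4 h cells Stat2 was not detectable at this depth, which is not a sign that it was absent.

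**Figure D1:**
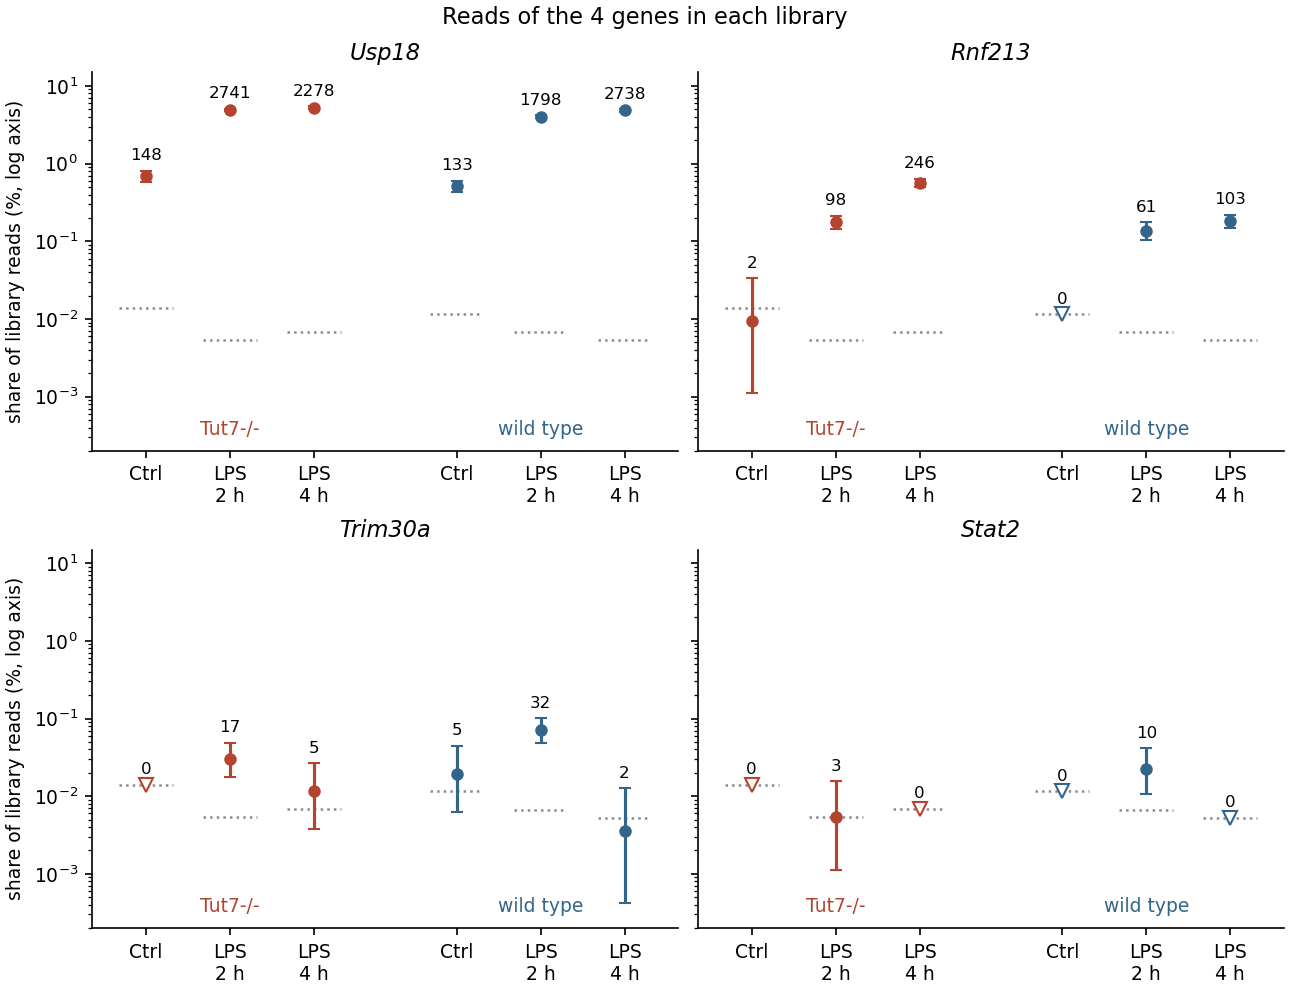
Share of library reads (percent, log axis) of Usp18, Rnf213, Trim30a and Stat2 in the 3 Tut7-/- and the 3 wild-type libraries. Points are shares with exact 95% counting intervals, numbers are read counts, dotted lines are the floor of 3 reads and open triangles mark libraries with 0 reads. Usp18 and Rnf213 stayed high at 4 h, whereas Trim30a and Stat2 had their highest counts at 2 h.

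At 2 h of LPS, 3 of the 3 genes with 10 or more reads in the Tut7-/- pair and 4 of 4 in the wild-type pair were at least 2-fold higher than in Ctrl. Over all genes with as many reads, 16.5% of 170 genes in Tut7-/- and 18.2% of 154 genes in wild-type cells passed the same fold. At 4 h it was 2 of 2 (Usp18 and Rnf213) in both genotypes, beside 13.4% of 157 genes in Tut7-/- and 18.5% of 151 genes in wild-type cells. Since the genes were selected on this contrast, the counts are printed for completeness and nothing is read from them. From 2 h to 4 h, 1 of 3 (Rnf213) in Tut7-/- and 0 of 4 in wild-type cells gained 2-fold, with 29% of 107 and 25.2% of 103 genes doing so over all. Genes that lost 2-fold were not counted over all genes, so the drops of Trim30a and Stat2 have no such background.

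The genes were also set against each other within each library, where the scaling of libraries cancels. There were 1.35 (0.162 to 4.97), 3.58 (2.89 to 4.37) and 10.8 (9.43 to 12.3) Rnf213 reads per 100 Usp18 reads in Tut7-/- Ctrl, LPS 2 h and LPS 4 h cells. Wild-type cells had 0 (0 to 2.81), 3.39 (2.58 to 4.38) and 3.76 (3.06 to 4.58). The ratio of the 2 genes thus differed little between the genotypes at 2 h, by 1.05-fold (0.753 to 1.48), and was 2.87-fold (2.26 to 3.67) higher in Tut7-/- cells at 4 h. Within Tut7-/- cells it was 3.02-fold (2.36 to 3.88) higher at 4 h than at 2 h, against 1.11-fold (0.795 to 1.56) in wild-type cells.

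Trim30a was also set against Usp18. Its reads per 100 Usp18 reads were 0 (0 to 2.52), 0.62 (0.361 to 0.995) and 0.219 (0.0712 to 0.513) in untreated, 2 h and 4 h Tut7-/- cells, and 3.76 (1.2 to 8.99), 1.78 (1.21 to 2.52) and 0.073 (0.00884 to 0.264) in wild-type cells. From 2 h to 4 h the ratio changed 0.354-fold (0.102 to 1) in Tut7-/- cells, an interval that reached 1, and 0.0411-fold (0.00476 to 0.161) in wild-type cells. At 2 h this ratio was lower in Tut7-/- cells, 0.349-fold (0.181 to 0.649) that of wild-type cells. For Stat2 to Usp18 the same comparison gave 0.197-fold (0.0348 to 0.766), on 3 and 10 Stat2 reads. Stat2 relative to Trim30a did not differ beyond counting error at 2 h (0.57-fold, 0.0889 to 2.63).

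**Figure D2:**
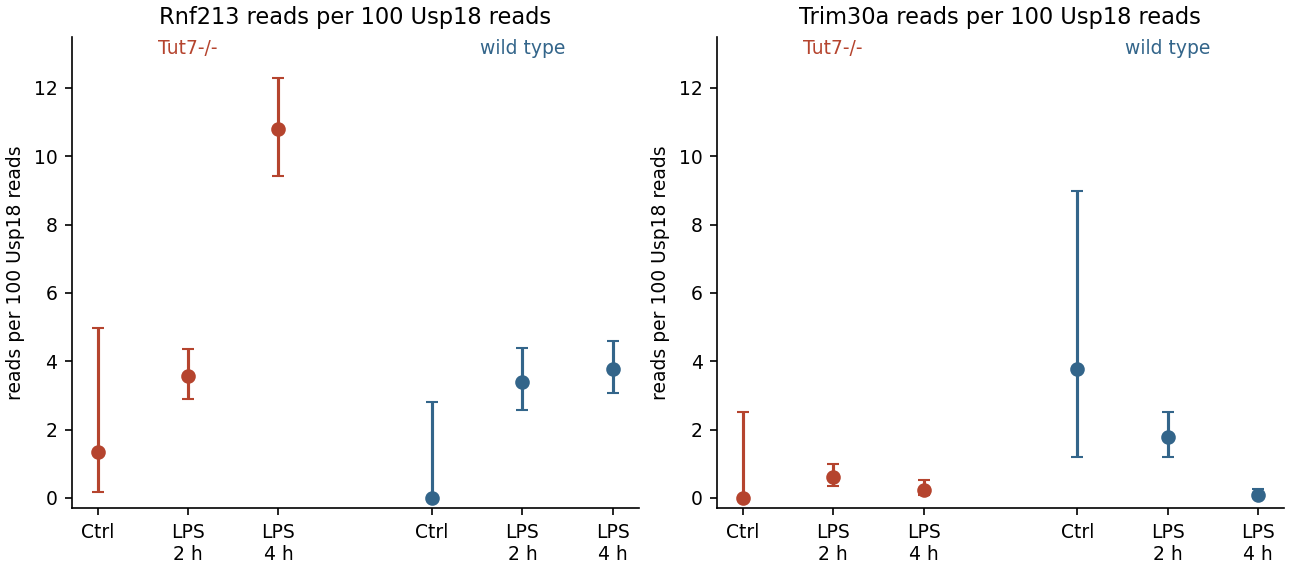
Rnf213 reads (left) and Trim30a reads (right) per 100 Usp18 reads in each library, Tut7-/- left and wild type right, with exact 95% counting intervals. Rnf213 reached 10.8 per 100 in the Tut7-/- LPS 4 h library and stayed at 3.76 or below in the other 5 libraries.

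The genotypes were compared at each time to see how the libraries differ with Tut7 removed, and 1 library on each side means that the libraries and not the genotypes are compared. In Ctrl, the Usp18 share was 1.35-fold (1.06 to 1.72) higher in Tut7-/- cells, and its interval held 1 under all 4 other scalings (1.15-fold to 1.25-fold). Rnf213, with 2 reads in Tut7-/- and 0 in wild-type cells, and Stat2, with 0 in both, were at or under the floor, so no fold is given. Trim30a had 0 reads in Tut7-/- and 5 in wild-type Ctrl cells, and the interval of its ratio (0 to 1.33) held 1. At 2-fold, 0 of 1 of the genes with enough reads was higher in Tut7-/- cells, beside 39.3% of 191 genes over all. This background mixes how far these single libraries lie apart with counting error in genes of few reads.

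After 2 h of LPS the Usp18 share in Tut7-/- cells was 1.22-fold (1.15 to 1.29) that of wild-type cells, with 1.13-fold to 1.86-fold under the other scalings. Rnf213 was at 1.28-fold (0.922 to 1.8), an interval that held 1. Trim30a was at 0.424-fold (0.221 to 0.787) and Stat2 at 0.239-fold (0.0423 to 0.93) the wild-type share, Stat2 on 3 reads against 10. With DESeq2 size factors both of these intervals held 1 (0.337 to 1.2 and 0.0646 to 1.42) and the Rnf213 interval was above 1 (1.41 to 2.74). None of the 4 genes was 2-fold higher in Tut7-/- cells, beside 28.7% of 115 genes. Genes 2-fold lower were not counted over all genes, so the lower shares of Trim30a and Stat2 have no background to stand beside.

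After 4 h the Rnf213 share in Tut7-/- cells was 3.11-fold (2.46 to 3.96) that of wild-type cells, with 246 reads against 103 in the larger wild-type library. A930037H05Rik, a transcript on the other strand of Rnf213, had 11 reads in that Tut7-/- library and 0 in the wild-type one, and its part in the result was not tested. The fold lay between 1.81 (1.44 to 2.31, TMM factors) and 3.19 (2.52 to 4.05, library size without Zc3h12a and Il6) under the other 4 scalings. Usp18 was at 1.08-fold (1.02 to 1.15), but at 0.632-fold with TMM factors, 0.8-fold with DESeq2 size factors and 0.871-fold without the 10 most abundant genes, so its direction rests on the scaling. Trim30a had 5 reads in Tut7-/- and 2 in wild-type cells, a ratio of 3.26 (0.533 to 34.2), and Stat2 had 0 in both. Of the genes with enough reads, 1 of 2 (Rnf213) was 2-fold higher in Tut7-/- cells, beside 37.1% of 97 genes over all. A 2-fold difference was thus common in this pair of libraries among genes with 10 or more reads, many of which may hold far fewer than Rnf213. With 50 or more reads 4 genes were 2-fold higher, and the number of genes with as many reads is not given.

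**Figure D3:**
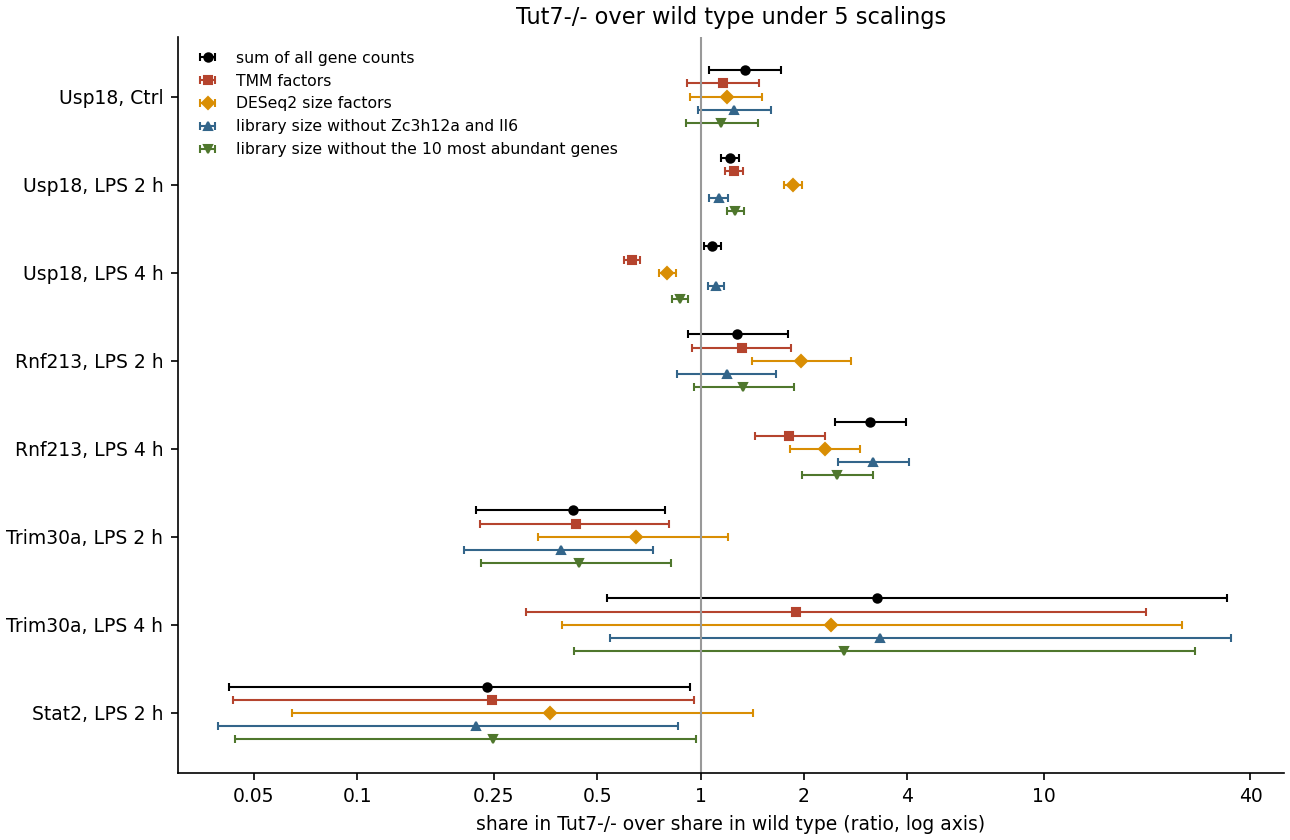
Ratio of the share in Tut7-/- to that in wild type (log axis) for each gene and time with reads above the floor, under 5 scalings of the libraries, with exact 95% counting intervals. Rnf213 at LPS 4 h lay above 1 under all 5 scalings, and Usp18 at LPS 4 h lay on either side of 1.

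The LPS effect itself was set against that of the other genotype, as a ratio of folds. For Usp18 the fold in Tut7-/- over that in wild type was 0.899 (0.701 to 1.15) at 2 h and 0.801 (0.625 to 1.03) at 4 h over Ctrl, both intervals holding 1. DESeq2 size factors brought the first to 1.56 (1.22 to 2). TMM factors, DESeq2 size factors and the library size without the 10 most abundant genes put the second interval below 1 (0.543, 0.674 and 0.757). For the step between 2 h and 4 h it was 0.891 (0.821 to 0.967) for Usp18, 2.42 (1.6 to 3.66) for Rnf213 and 7.46 (1.08 to 86.2) for Trim30a, the last on 2 reads in wild-type LPS 4 h cells. The Usp18 value was 0.506 (0.466 to 0.549) with TMM factors, 0.431 (0.397 to 0.468) with DESeq2 size factors and 0.689 (0.634 to 0.748) leaving out the 10 most abundant genes, and its interval held 1 without Zc3h12a and Il6 (0.908 to 1.07). With TMM factors or DESeq2 size factors the intervals of Rnf213 and Trim30a held 1. Stat2 had no reads for such a ratio.

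An additive model of LPS time and genotype over the 6 libraries tested the genotype term, where the 3 times stand in for replicates. It called 0 of 115 genes (0% at an adjusted p of 0.05, edgeR quasi-likelihood test), and 2 genes had an unadjusted p under 0.05. DESeq2's Wald test and limma-voom called 0 as well, with 6 and 1 genes at an unadjusted p under 0.05. The log2 value of Tut7-/- over wild type was 0.28 ± 0.21 (approximate SE) for Usp18, 1.36 ± 0.76 for Rnf213 and -1.03 ± 2.14 for Trim30a, each with an adjusted p of 0.964 in edgeR. This SE is the size of the log2 value divided by the square root of its quasi-likelihood F. Stat2 did not pass the filter on low counts. The Rnf213 share was higher in Tut7-/- cells at 2 h and 4 h. Its Ctrl counts were both under the floor, so no direction is given there. The Usp18 share was higher at 3 of 3 times (2 of 3 with TMM factors, with DESeq2 size factors or leaving out the 10 most abundant genes). The Trim30a share was higher at 1 of 3 times, on 5 reads against 2. How many of all genes ran alike over the 3 times was not counted. With 2 residual degrees of freedom and 1 library per cell of the design, a p that misses the threshold does not show that the genotypes were alike.

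The reads that the authors sorted by the forward primer for Il6, the inflammatory cytokine gene, gave a separate view of Usp18. Such lists were used here for Ctrl and LPS 4 h cells of both genotypes. Among them were reads that began with the Il6 primer and went on into a sequence that joined the first base of Usp18 exon 6 of 11 (exon start 121261367 on chromosome 6, transcript ENSMUST00000032198.10). The 20 bases used to recognize these reads were in no GENCODE M21 transcript. They came from the most frequent bases before exon 6 in 14 reads that held 16 bases of the Usp18 transcript. The annotated intron before the exon is 232 bases long, and whether the new bases are its end was not checked, as no genome sequence was used. The lines show the bases before exon 6 as the reads held them, the spliced transcript, which differs there, and the primer. Capitals mark the bases of exon 6 in the first 2, taken from the annotated transcript, of which the reads reached at most 30.
Usp18 before exon 6 in Il6-primed reads: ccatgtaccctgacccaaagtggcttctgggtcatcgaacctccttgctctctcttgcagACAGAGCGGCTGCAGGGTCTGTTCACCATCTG
Usp18 spliced transcript: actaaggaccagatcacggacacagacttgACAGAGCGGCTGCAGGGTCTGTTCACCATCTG
Il6 forward primer: tgtttagactgtcttcaaacaaataaa

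Only 5 of 1725 reads of Tut7-/- and 6 of 1744 reads of wild-type LPS 4 h cells held 16 bases of a Usp18 transcript. In Ctrl it was 0 of 207 and 3 of 277 reads. The other reads counted here were assigned by the upstream sequence, whose place in the gene was not checked. This sequence was found in 167 of 1725 reads (9.68%, 8.33% to 11.2%) of Tut7-/- LPS 4 h cells. In wild-type LPS 4 h cells it was in 150 of 1744 reads (8.6%, 7.33% to 10%). The share was 1.13-fold (0.897 to 1.41) that of wild type, an interval that held 1. In Ctrl it was found in 3 of 207 reads (1.45%, 0.3% to 4.18%) of Tut7-/- cells and 16 of 277 reads (5.78%, 3.34% to 9.21%) of wild-type cells, a ratio of 0.251 (0.0468 to 0.877). Over Ctrl, the LPS 4 h share was 6.68-fold (2.25 to 32.7) higher in Tut7-/- and 1.49-fold (0.887 to 2.67) in wild-type cells, the second interval holding 1. Reads that continued into Il6 itself numbered 1369 and 0 in Tut7-/- LPS 4 h and Ctrl cells and 1418 and 3 in wild-type LPS 4 h and Ctrl cells, so the denominators of the Ctrl shares hold hardly any Il6. Per 100 Il6 reads there were 12.2 reads with the upstream sequence in Tut7-/- and 10.6 in wild-type LPS 4 h cells. In the count tables the same libraries held 106 (100.3 to 113) and 93.6 (88.8 to 98.6) Usp18 reads per 100 Il6 reads. How far these are the same as the reads with the upstream sequence was not tested.

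These reads had a preferred last matching base. In Tut7-/- LPS 4 h cells 46 of 167 (27.5%, 20.9% to 35%) and in wild-type LPS 4 h cells 45 of 150 (30%, 22.8% to 38%) had a match that ended at the last base before exon 6. Only the last bases of a match had to be exact, and bases further upstream could differ. The linker followed at once in 46 of the 46 and 41 of the 45. In a further 96 and 87 reads the match ended before that base, and in 25 and 18 it ended in the exon. The bases that followed the match were not classified in those reads. Of the matches that ended in the exon, 15 in Tut7-/- and 4 in wild-type cells held 1 base more, an A, which can be the first base of the exon or an added A. The intervals of the shares whose match ended at the boundary overlapped between the genotypes. The Ctrl lists had 2 of 3 such reads in Tut7-/- and 3 of 16 in wild-type cells, too few to compare.

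**Figure D4:**
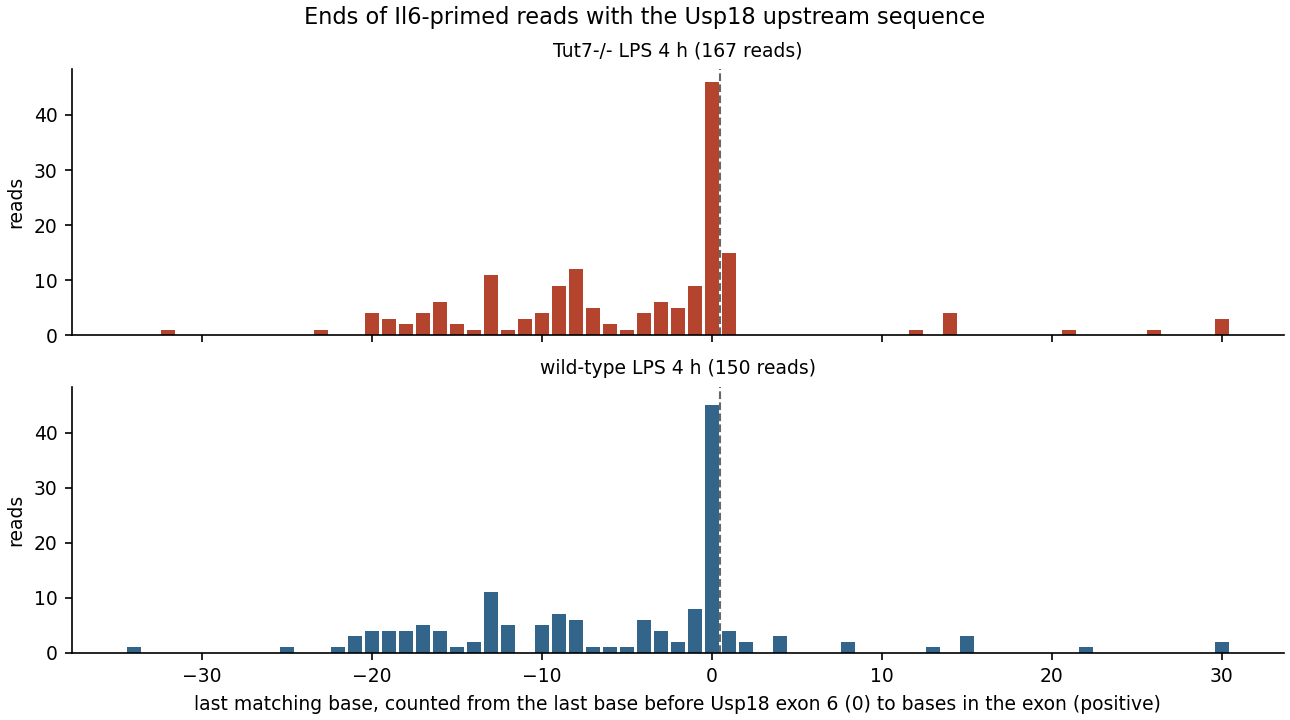
Number of Il6-primed reads with the upstream Usp18 sequence by their last matching base, where 0 is the last base before exon 6 and positive positions lie in the exon (dashed line, the boundary). The upper panel shows Tut7-/- and the lower panel wild-type LPS 4 h cells, and in both the boundary position holds the most reads (46 and 45).

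The other genes of the group were looked for only by stretches of 16 bases of their annotated transcripts, which cannot show sequence outside these. By this search Usp18 had 5 reads in Tut7-/- and 6 in wild-type LPS 4 h cells. Rnf213 and Stat2 shared no stretch of 16 bases with any listed read. Trim30a shared one with 1 read of Tut7-/- and 2 reads of wild-type LPS 4 h cells, all 3 of which continued into Il6 and matched over 16 bases with at least 14 A.

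Few other genes of the interferon pathway had reads in these amplified libraries. Of 134 other genes of the lists drawn up for ligands, receptors, transcription factors, inhibitors, the ISG15 system, effectors, sensors, TRIM relatives and the path from Toll-like receptor 4 to interferon, 22 had a read and 4 had 10 or more. Beside this, 964 of all 56262 gene identifiers had a read, so few reads are no trait of this pathway. The 13 interferon genes had none. Azi2, an adaptor of the kinase TBK1, had 4, 4 and 14 reads in untreated, 2 h and 4 h Tut7-/- cells and 5, 2 and 79 in wild-type cells. Trim5, whose primate relative restricts retroviruses, had 0, 2 and 23 reads in Tut7-/- and 0, 15 and 2 in wild-type cells. Ddx58, the RNA sensor RIG-I, had 0, 0 and 1 reads in Tut7-/- and 7, 0 and 4 in wild-type cells. Ifngr2, a chain of the interferon-γ receptor, had 26 reads, all in Tut7-/- Ctrl cells. Isg15, the protein that USP18 removes, had 2 reads, in Tut7-/- LPS 4 h cells. Except for Usp18 and Rnf213, the gene group was thus carried by few reads.

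The genes whose share ran most like each member were sought among genes with 30 or more reads, by the mean absolute difference in log2 share over the 6 libraries after each gene's own mean was taken off. For Usp18 these were Oaf (0.22), Il10 (0.46) and Tnf (0.56), the last 2 being cytokine genes that the authors label in their tables. For Rnf213 they were Oaf (1.06), Usp18 (1.14) and the gene model Gm15133 (1.36). For Trim30a they were Tnf (1.11), Ripk2, a kinase of NOD receptor signaling (1.19), and Tax1bp1, an adaptor of the inhibitor A20 (1.32). For Stat2 they were Gm47079 (0.61), an antisense RNA on chromosome 9, with 12 reads in Tut7-/- and 19 in wild-type LPS 2 h cells and 0 elsewhere, then Trim30a (0.92) and Gm43430 (1.12). Oaf had 0, 9 and 7 reads in untreated, 2 h and 4 h Tut7-/- cells and 0, 7 and 15 in wild-type cells. Its Ctrl values, and so its likeness to Usp18 and Rnf213, rest on the pseudocount. The libraries share PCR and depth, and likeness over 6 of them says nothing of shared control.

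Usp18 kept pace with Il10 and Tnf only in part. Per 100 Il10 reads there were 51.7, 116 and 63.9 Usp18 reads in untreated, 2 h and 4 h Tut7-/- cells, and 33.8, 84.7 and 78.2 in wild-type cells. The ratio was higher in Tut7-/- cells in Ctrl (1.53-fold, 1.15 to 2.04) and at 2 h (1.37-fold, 1.26 to 1.49) and lower at 4 h (0.818-fold, 0.76 to 0.88). Per 100 Tnf reads there were 121, 152 and 238 Usp18 reads in Tut7-/- cells and 77.3, 131 and 331 in wild-type cells. This ratio too was above that of wild type in Ctrl (1.57-fold, 1.11 to 2.21) and at 2 h (1.16-fold, 1.05 to 1.27) and below it at 4 h (0.719-fold, 0.644 to 0.802). Relative to Il6 the order at 4 h was the other, since the ratio of Usp18 to Il6 in Tut7-/- cells was 1.14-fold (1.05 to 1.23) that of wild-type cells, after 1.32-fold (1.21 to 1.45) at 2 h. Relative to Zc3h12a it was 1.48-fold (1.16 to 1.88) in Ctrl, 1.27-fold (1.19 to 1.35) at 2 h and 1.06-fold (0.998 to 1.12) at 4 h, the last interval holding 1. Whether Usp18 had more or fewer reads in Tut7-/- cells at 4 h thus turned on the gene it was set against.

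Some of these reads may be shared with neighboring genes. The setting for strand in the counting was not given in the sources used here, so reads of a gene and of one on its other strand cannot be told apart. Rnf213 is overlapped by A930037H05Rik, which had 0, 0 and 11 reads in untreated, 2 h and 4 h Tut7-/- cells and 0, 6 and 0 in wild-type cells and shares 5.05% of the stretches of 50 bases in the Rnf213 transcript. Usp18 is overlapped by Gm44148, with 0 reads and 4.47% of stretches shared. Trim30a shares 6.53% of its stretches with the adjacent Trim30d, which had 0 reads, and Stat2 shares none with any other gene.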

How the data were processed

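Gene-specific TAIL-Seq was done on BMDMs of 2 genotypes at 3 stages, 1 library each. The authors joined linker-1 to total RNA, removed rRNA, fragmented with RNase T1, amplified with gene-specific primers, and aligned with HISAT2 to mm10. The deposited tables give unnormalized counts of reads for each Ensembl gene. The counter, its version, the strand setting and any removal of PCR duplicates: not given in the sources used here. Per the study's methods, the authors made the Il6 lists by filtering trimmed reads on linker-1 and the Il6 primer.

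Names and coordinates came from GENCODE M21, to which all 964 identifiers with reads matched. Shares were taken of the sum of all gene counts. Ratios had exact conditional binomial 95% intervals, with no p, and differences of ratios had exact conditional odds ratio intervals. Folds against 0 reads used a floor of 3 reads in that library. Log2 ratios used a pseudocount of 0.5 read, and a call was a ratio of 2 or more where the pair held at least 10 reads. Depth was 21408 to 56718 reads. The genotype term was fitted with edgeR 4.0.16 (R 4.3.3) on genes that passed filterByExpr, with Benjamini-Hochberg adjustment. Alternatives were TMM, size factors of DESeq2 1.42.0, a library size that leaves out Zc3h12a and Il6 or one that leaves out the top 10 genes, a pseudocount of 2, no filter or 50 reads, DESeq2's Wald test, limma-voom 3.58.1 and each library left out. The scripts were tested on simulated data. For the genotype term, the run that had to pass used deeper libraries and a dispersion far below the 0.859 of these data. It does not show how well the test works here.

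Reads with the upstream Usp18 sequence in the Il6 lists were those with 20 upstream bases within 2 edits, which was chosen after seeing the data. The genes and lists were chosen with earlier results of these data known. By rule, named genes were the 4 members, list genes with 10 or more reads, the 3 genes most alike per member, and genes that hold the most reads. Outside this rule, Tut7, Isg15, Lyz2, Mpeg1, overlapping genes and TRIM relatives were named too. So were Ifit1bl1, Gbp5, Helz2 and Irf8, picked after their values had been seen. 1 gene of the lists is not reported here. Il6 lists of LPS 2 h cells were not analysed here.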

Additional observations from a re-analysis of the deposited data

Results flagged for a closer look

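In 3 cases the step from LPS 2 h to 4 h differed between the genotypes by more than counting error. The fold in Tut7-/- over that in wild type was 0.891 (0.821 to 0.967) for Usp18, with folds of 1.07 in Tut7-/- and 1.2 in wild type. It was 2.42 (1.6 to 3.66) for Rnf213, with folds of 3.22 in Tut7-/- and 1.33 in wild type. For Trim30a it was 7.46 (1.08 to 86.2), with folds of 0.378 in Tut7-/- and 0.0492 in wild type, the wild-type value resting on 2 reads. The differences were not tested over replicates, since each rests on 4 single libraries. The Usp18 value was 0.506 (TMM factors), 0.431 (DESeq2 size factors) and 0.689 (leaving out the 10 most abundant genes), and its interval held 1 with the library size without Zc3h12a and Il6 (0.908 to 1.07). Those of Rnf213 and Trim30a held 1 with TMM factors (0.91 to 2.08 and 0.615 to 49) and with DESeq2 size factors (0.775 to 1.77 and 0.524 to 41.7), and that of Trim30a also without the 10 most abundant genes (0.836 to 66.6).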

How the results depend on the processing

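Other scalings moved every log2 ratio to Ctrl up, by 1.82 to 2.41 in Tut7-/- and by 1.61 to 2.49 in wild-type cells under TMM, under DESeq2 size factors or leaving out the top 10 genes, and by 0.26 to 0.60 without Zc3h12a and Il6. Usp18 and Rnf213 stayed above Ctrl at 2 h and 4 h, and Trim30a at 2 h, under all 5 scalings. Trim30a at 4 h over Ctrl in wild-type cells lay between -2.26 and 0.23. Directions that turned were all of Usp18 in the ratios with an interval off 1. Its log2 ratio of 4 h to 2 h in Tut7-/- cells was -0.06 (TMM factors), -0.25 (DESeq2 size factors) and -0.10 (without Zc3h12a and Il6), and that in wild-type cells was -0.08 without Zc3h12a and Il6. Tut7-/- over wild type at 4 h was -0.66 (TMM factors), -0.32 (DESeq2 size factors) and -0.20 (leaving out the 10 most abundant genes). Values moved beyond the counting interval in 20 of 45 alternatives for Usp18, 6 of 40 for Rnf213, 2 of 45 for Trim30a and 0 of 15 for Stat2, besides the 7 that turned. A scaling shifts all genes of a pair alike. The few moves of Stat2 and Trim30a thus go with wide intervals on few reads and do not show stability. The cause was not tested beyond the shift of all genes that each scaling makes by construction.

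The genotype term of Usp18 was -0.04 with TMM factors, and that of Trim30a lay between -2.35 and 0.06 over the fits that left out 1 library, turning without wild-type Ctrl (0.05) and without Tut7-/- Ctrl (0.06). The range of calls over the fits that left out 1 library was 0 to 1, with the 1 call without Tut7-/- Ctrl, and it was 0 in the other alternatives. The Rnf213 term was 0.92 to 2.14 over all alternatives and never passed the threshold (lowest adjusted p 0.698, edgeR with Benjamini-Hochberg adjustment).

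The background counts of genes 2-fold higher changed by more than 1.5 times in these cases. At 2 h over Ctrl in Tut7-/- cells 28 genes became 43 (TMM factors), 50 (DESeq2 size factors), 49 (without the 10 most abundant), 75 (no filter) and 6 (50 reads), and in wild-type cells 28 became 48, 48, 52, 105 and 5. At 4 h over Ctrl in Tut7-/- cells 21 became 36, 37, 41, 95 and 5, and in wild-type cells 28 became 45, 45, 46, 100 and 8. With no filter or 50 reads, 4 h over 2 h gave 160 and 5 in Tut7-/- and 151 and 4 in wild-type cells, and Tut7-/- over wild type gave 260 and 7 in Ctrl, 187 and 3 at 2 h and 170 and 4 at 4 h.

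In the Il6 lists, an exact match of the 20 bases gave 7.71% in Tut7-/- and 7.11% in wild-type LPS 4 h cells, and counting identical sequences once gave 13.9% and 12.6%. No paired analysis was possible because the labels give no replicate numbers to pair within a group, beyond the additive model, which compares the genotypes within each time. Depth limits Stat2 and Trim30a, whose highest counts were 10 and 32 reads.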

Other observations

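Interferon list genes with 1 to 9 reads over all libraries, 18 genes in all, were looked at together after their values had been seen. They held 2, 8 and 33 reads in Tut7-/- Ctrl, LPS 2 h and LPS 4 h cells and 4, 6 and 1 in wild-type cells. The 33 reads of the Tut7-/- LPS 4 h library included 6 of Ifit1bl1, a relative of the antiviral IFIT proteins, 5 of Gbp5, an interferon-induced GTPase, 4 of Helz2 and 4 of Irf8, a macrophage transcription factor. The 648 other genes with 1 to 9 reads held 479, 306 and 243 reads in Tut7-/- and 498, 275 and 236 in wild-type cells at the same stages. A gene entered this pool by having a read in any library. Ifit1bl1, Helz2 and Irf8 had reads only in the Tut7-/- LPS 4 h library. The limit of 9 reads left out Azi2, Trim5 and Ddx58, with 14, 23 and 1 reads in Tut7-/- and 79, 2 and 4 in wild-type LPS 4 h cells. The difference between the LPS 4 h libraries thus depends on how the pool was drawn, and nothing is read from it. Each listed gene was near the floor of 3 reads on its own, and the values are given as a description with no test.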
